A study of Mus musculus with 36 samples.

Results

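The 10 genes Celf1, Celf2, Rbfox1, Rbfox2, Rbm20, Rbm24, Ptbp1, Ptbp2, Qk and Mbnl3 encode RNA-binding proteins that choose exons in heart and skeletal muscle. They were taken by symbol from the count and TPM values of 55291 symbols, and all 10 were among the 19231 genes with enough counts to be tested. The RNA was that of CUG960 mouse hearts at 21 weeks, with left ventricle and atria taken separately, in 36 libraries with 3 in each of 12 groups of a chamber and a cohort. All 6 cohorts carry the same transgenes, TREDT960I (homozygous) and MHCrtTA (hemizygous), in which rtTA under the cardiac α-MHC promoter drives RNA with 960 interrupted CUG repeats when doxycycline (dox) is given. In +dox mice the repeat RNA was on from postnatal day 1, in -dox mice it was never on, and in +/-dox mice dox was withdrawn after 9 weeks. No library came from dox-fed mice without the repeat transgene. Effects of dox itself and of the repeat RNA therefore cannot be told apart in comparisons of these cohorts. Mice of 3 further cohorts, named MBNL1, MBNL2 and MBNL1+MBNL2, were kept on dox and injected at 9 weeks with AAV9 vectors for tagged human MBNL1, MBNL2 or both under the cardiac TNNT2 promoter. No library came from mice given the study's control vector for tdTomato. Injection of a vector and MBNL expression therefore cannot be told apart in these cohorts.

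Expanded CUG repeats cause myotonic dystrophy type 1 (DM1) in people, and the repeat RNA captures MBNL proteins and lowers their activity. CELF proteins bind UG-rich RNA and often act against MBNL proteins on the same exons as the heart matures after birth. RBFOX proteins bind UGCAUG elements in introns, PTB proteins bind CU-rich elements and mostly repress exons, QK binds ACUAA elements, and RBM20 and RBM24 set the splicing of sarcomere and calcium-handling transcripts. Values below are RNA levels, and the splicing activity and protein of these genes were not analysed here.

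Counts per library summed to between 55031987 and 97091184. The ventricular MBNL1 replicate 1 stood apart, with fewer genes above 0 than any other library. Library names form set A (replicates 1 and 2 of every cohort but MBNL1+MBNL2) and set B (replicate 3 of those and all of MBNL1+MBNL2). By the study's animal list, the ventricle and the atria of a cohort came from the same 3 animals, so that comparisons between chambers set 2 regions of the same animals side by side. Which replicate number is which animal is not given there, and same-numbered libraries of the chambers deviated together from their group means. The MBNL1+MBNL2 mice were all male, by the study's animal list, and all in set B, whereas the other cohorts held both sexes and both sets, so that sex, set and vector cannot be told apart in MBNL1+MBNL2 mice. Each of the other cohorts held more males than females and more set A than set B libraries. Since replicate numbers are not tied to animals, set and sex may coincide in those cohorts too. Cardiomyocyte markers were present in all libraries, and the summed markers of atrial myocardium in the ventricle reached at most 1.99% of their median in the atria. Levels are given as normalized read counts scaled to TMM-adjusted library size (CPM), while TPM, which also takes transcript length into account, is used between genes. A gene passed at an adjusted p-value below 0.05 (edgeR's quasi-likelihood test, Benjamini-Hochberg adjustment over all tested genes) and was called when its fold change was also at least 1.5. Log2 fold changes and log2 differences are given ± the standard error of the fit. In bulk tissue, fewer cells of a type and less RNA per cell cannot be told apart.

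The members lie on 9 chromosomes of GRCm38. The CELF genes are Celf1 (ENSMUSG00000005506.16, chromosome 2, 90940382 to 91019497) and Celf2 (ENSMUSG00000002107.18, chromosome 2, 6539694 to 7509563), and the RBFOX genes are Rbfox1 (ENSMUSG00000008658.16, chromosome 16, 5885355 to 7411526) and Rbfox2 (ENSMUSG00000033565.18, chromosome 15, 77078990 to 77307004). The others are Rbm20 (ENSMUSG00000043639.15, chromosome 19, 53677306 to 53867080), Rbm24 (ENSMUSG00000038132.6, chromosome 13, 46418434 to 46431095), Ptbp1 (ENSMUSG00000006498.16, chromosome 10, 79854427 to 79864771), Ptbp2 (ENSMUSG00000028134.11, chromosome 3, 119718742 to 119784466), Qk (ENSMUSG00000062078.15, chromosome 17, 10202601 to 10319854) and Mbnl3 (ENSMUSG00000036109.17, chromosome X, 51117269 to 51206532). Celf1, Rbm24, Qk and Mbnl3 overlap no other annotated gene, whereas Celf2 shares its span with 7 annotated genes and Rbfox1 with 1, 1700123O21Rik, on the same strand. Promoters are shown for Celf1 and Rbfox1, since these members differed in opposite directions between ventricles with and without repeat RNA. Each run spans 250 bases before to 50 after a start of transcription (RefSeq, GRCm38.p6, plus strand), and capitals mark the GC box GGGCGG or its complement CCGCCC, overlaps counted.

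Celf1, chr2:90940147-90940446: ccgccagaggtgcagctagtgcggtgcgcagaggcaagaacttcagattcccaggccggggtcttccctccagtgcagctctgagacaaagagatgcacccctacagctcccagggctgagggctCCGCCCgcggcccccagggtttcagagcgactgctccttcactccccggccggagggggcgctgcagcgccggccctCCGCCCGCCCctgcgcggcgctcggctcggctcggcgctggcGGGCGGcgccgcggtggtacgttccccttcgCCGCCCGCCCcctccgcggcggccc

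Rbfox1 upstream start, chr16:5884543-5884842: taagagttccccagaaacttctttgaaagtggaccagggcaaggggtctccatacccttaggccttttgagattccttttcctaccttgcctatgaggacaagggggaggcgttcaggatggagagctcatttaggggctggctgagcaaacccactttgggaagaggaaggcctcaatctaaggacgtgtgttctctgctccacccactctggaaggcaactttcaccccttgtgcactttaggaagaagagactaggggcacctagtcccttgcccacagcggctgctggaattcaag

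Rbfox1 downstream start, chr16:7069585-7069884: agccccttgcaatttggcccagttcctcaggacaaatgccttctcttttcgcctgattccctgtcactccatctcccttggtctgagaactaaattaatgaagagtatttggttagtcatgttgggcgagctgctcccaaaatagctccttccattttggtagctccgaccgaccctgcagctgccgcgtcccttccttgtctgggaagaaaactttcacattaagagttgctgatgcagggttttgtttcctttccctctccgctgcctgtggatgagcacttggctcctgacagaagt

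The Celf1 promoter held 6 GC boxes and 34 CpG dinucleotides at a GC content of 74.3%. Neither start of Rbfox1 had a GC box in this window, and the 2 windows held 3 and 7 CpGs at 52.7% and 50% GC. Among all 32851 promoters of the same length, 35.7% held at least 1 GC box. The medians over all promoters were 7 CpGs and 52.7% GC. RefSeq promoters were found for 8 of the 10 members, and Rbfox2 and Rbm20 were not among them. Of the members not shown, Ptbp2 held 6 GC boxes, Qk 5, Ptbp1 1, and Rbm24 and Mbnl3 0. The starts of Celf2, which was higher in -dox mice like Rbfox1, held 3, 1 or 0. A link of these promoter traits to the direction of a difference was not tested.

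Qk, Rbm24 and Rbm20 were the most abundant members per length, and Mbnl3 was barely present. In the ventricle of -dox mice, Qk was at 106 ± 3.17 TPM (SD, n = 3), Rbm24 at 73.1 ± 7.73 and Rbm20 at 59.7 ± 8.62. The ranges of Rbm24 and Rbm20 overlapped. Rbfox2 (33.0 ± 1.23 TPM), Celf1 (30.4 ± 0.918 TPM) and Celf2 (24.5 ± 0.947 TPM) followed without overlap. Ptbp1 (14.7 ± 1.70 TPM) and Rbfox1 (14.3 ± 3.32 TPM) overlapped, and Ptbp2 was at 7.57 ± 0.440 TPM. In the atria of -dox mice the ranges of neighbouring members overlapped between Rbm24, Rbm20 and Qk (112, 100.2 and 97.6 TPM on average). Mbnl3 ranged from 0.0700 to 0.300 TPM over the 18 ventricular libraries and from 0 to 0.120 TPM over the 18 atrial libraries.

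Rbfox1, whose protein directs neuronal and muscle exons, was about 2-fold higher in the ventricle when the repeat RNA had not been turned on. The ventricular +dox libraries held 9.07, 12.0 and 16.2 CPM and the -dox libraries 20.7, 24.1 and 33.9 CPM. The lowest -dox library lay above the highest +dox library. The log2 fold change of -dox against +dox was 1.08 ± 0.19 (adjusted p = 1.41e-04), a 2.12-fold difference. It was the only member called in this comparison, beside 7.6% of all tested genes. The highest +dox library and the lowest -dox library were the set B libraries, and among set A libraries only the log2 fold change was 1.47, a choice made after seeing the data.

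Atrial Rbfox1 was at a higher level than ventricular Rbfox1 in both cohorts. The atrial +dox libraries held 34.7, 35.9 and 38.2 CPM and the -dox libraries 41.8, 42.9 and 45.4 CPM, without overlap. The atrial log2 fold change was 0.26 ± 0.18 (adjusted p = 0.379), which did not pass. The difference between the chambers in this effect was 0.82 ± 0.26 (adjusted p = 0.148) on the log2 scale, with an unadjusted p of 0.00425, and it did not pass. DESeq2 put that difference at 0.84 (adjusted p = 0.0482), and over all alternatives its adjusted p ran from 0.00735 to 0.437. These fits treated ventricular and atrial libraries as independent, and none paired the chambers of an animal. The summed markers of neurons and glia were higher in -dox mice too, with 1 of 4 tested markers passing in each chamber. Their 7 genes summed to 1.95 to 2.83 TPM in ventricular +dox libraries and 2.92 to 3.83 TPM in -dox libraries, with Th and Snap25 below 0.1 TPM in both. In atrial libraries they summed to 6.08 to 6.75 TPM in +dox and 8.99 to 10.8 TPM in -dox mice. The part of such cells in the result was not tested. Atrial markers in the ventricle overlapped between the cohorts, at 124 to 471 TPM in +dox and 92.2 to 1007 TPM in -dox. The part of atrial tissue in the ventricular result was not tested.

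Rbfox2, the RBFOX gene expressed in many tissues, went the other way in both chambers. Ventricular +dox libraries held 160.4, 194 and 202 CPM and -dox libraries 136, 139.8 and 145 CPM. Atrial +dox libraries held 199, 202 and 205 CPM and -dox libraries 158, 169 and 172 CPM. All -dox libraries lay below all +dox libraries of their chamber. The log2 fold changes were -0.40 ± 0.07 (adjusted p = 7.48e-05) in the ventricle and -0.28 ± 0.07 (adjusted p = 0.00436) in the atria, which correspond to 1.32-fold and 1.22-fold lower levels and are under the fold minimum.

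**Figure D1:**
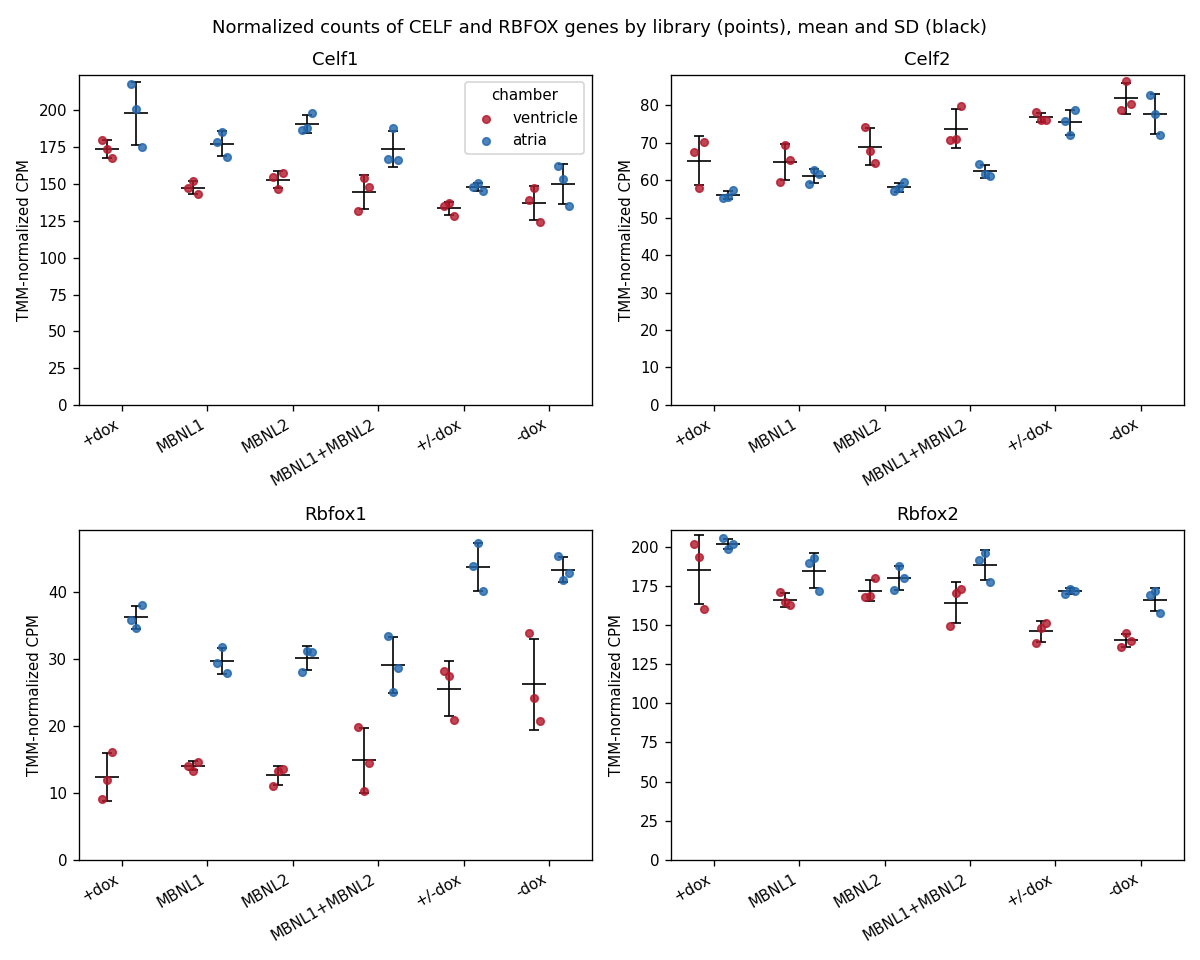
TMM-normalized CPM of Celf1, Celf2, Rbfox1 and Rbfox2 (linear axes from 0) in each library of the 6 cohorts, with ventricle in red and atria in blue, and black marks for the mean and SD of 3 libraries. Ventricular Rbfox1 lies between 9.07 and 16.2 in +dox mice and from 20.7 to 33.9 in -dox mice.

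Celf1, whose protein is reported to rise in DM1 tissue, was lower at the RNA level without the repeat RNA in both chambers. Its ventricular +dox libraries held 168, 174 and 179.9 CPM and its -dox libraries 124, 139 and 147 CPM. In the atria the +dox libraries held 175, 201 and 218 CPM and the -dox libraries 135, 153 and 162 CPM. The groups did not overlap in either chamber. The log2 fold change was -0.34 ± 0.08 (adjusted p = 0.00119) in the ventricle and -0.40 ± 0.08 (adjusted p = 3.16e-04) in the atria, so that Celf1 was 1.27-fold and 1.32-fold lower in -dox mice.

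Celf2, its paralog, was higher without the repeat RNA. Its ventricular libraries held 57.9, 67.5 and 70.2 CPM in the +dox cohort and 78.6, 80.2 and 86.5 CPM in the -dox cohort. Its atrial libraries held 55.3, 55.4 and 57.3 CPM and 72.1, 77.7 and 82.8 CPM. The log2 fold changes were 0.33 ± 0.07 (adjusted p = 9.60e-04) and 0.47 ± 0.07 (adjusted p = 1.49e-05), again without overlap. Celf2 is also expressed by lymphocytes, whose markers were scarce (T cell markers summed to at most 4.77 TPM and B cell markers to at most 1.05 TPM in these 4 groups). The median T cell sum was 0.95 TPM in +dox and 0.76 TPM in -dox ventricles and 2.23 TPM and 1.59 TPM in the atria, whereas the median B cell sum was 0.53 TPM and 0.62 TPM in ventricles and 0.63 TPM and 0.78 TPM in the atria. Endothelial markers moved with Celf2. Of their 7 genes, 5 passed as higher in -dox mice in each chamber, and their sum went from 176 to 193 TPM in +dox to 218 to 277 TPM in -dox in the ventricle and from 285 to 338 TPM to 364 to 444 TPM in the atria. Other marker lists also had members that passed as higher in -dox mice, namely smooth muscle and pericyte (3 of 7 in each chamber), fibroblast (1 of 7 in ventricles and 3 of 7 in atria) and cardiomyocyte (1 of 10 and 5 of 10). In +/-dox mice, 4 of 7 endothelial markers passed in ventricles and 1 of 7 in atria, and cardiomyocyte markers 7 of 10 and 5 of 10. The part of any of these cells in the Celf2 difference was not tested.

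In all, 4 of 10 members passed in ventricular libraries, 2 higher and 2 lower, beside 20.9% of all tested genes, of which 9.64% were higher and 11.3% lower. Atrial libraries gave 3 of 10, 1 higher and 2 lower, beside 15.9% of all genes (7.3% higher and 8.62% lower). None of the atrial 3 was called, beside 5.23%. The -dox and +dox libraries did not overlap for 5 members in each chamber, beside 33.6% and 36.6% of genes. A test of any difference among the 6 cohorts passed for Celf1, Celf2, Rbfox1, Rbfox2 and Ptbp1 in the ventricle, 5 of 10 beside 23.7% of genes. It passed for Celf1, Celf2, Rbfox1 and Rbfox2 in the atria, 4 of 10 beside 16.3%.

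**Figure D2:**
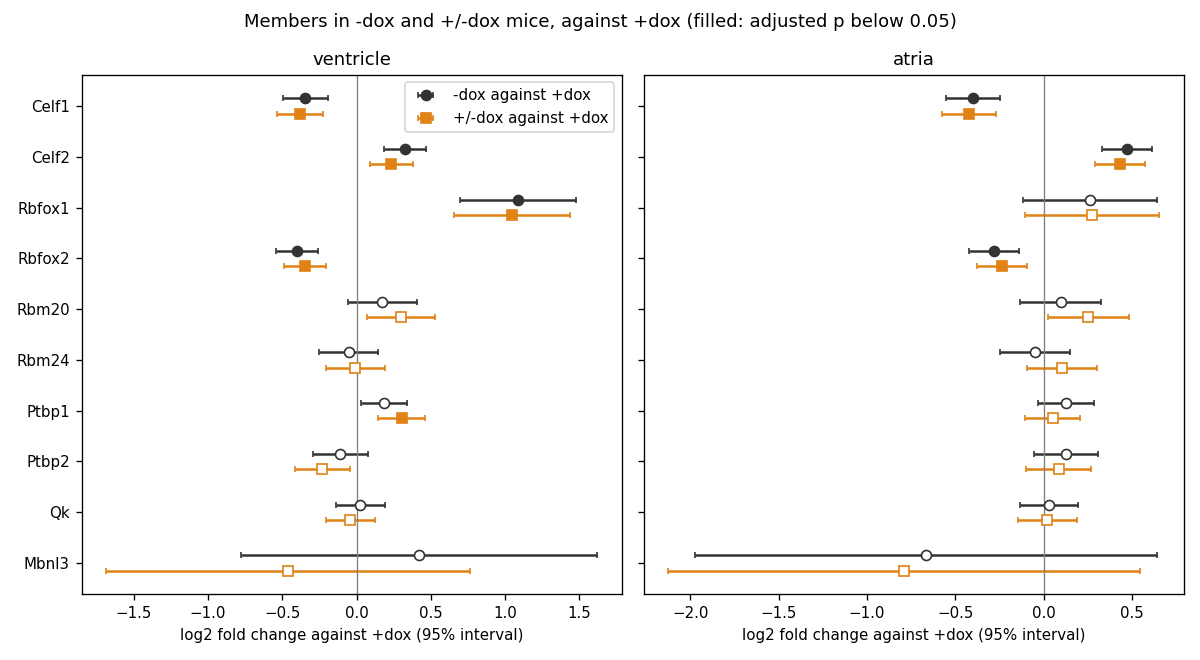
Log2 fold changes of the 10 members against +dox mice, with 95% intervals, for -dox (circles) and +/-dox (squares), in the ventricle (left) and the atria (right). Filled symbols passed at an adjusted p below 0.05, and ventricular Rbfox1 lies at 1.08 and 1.05, the farthest to the right of the filled symbols.

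The +/-dox mice, in which the repeat RNA was turned off at 9 weeks, differed from +dox mice in the same 4 CELF and RBFOX genes in the ventricle. In +/-dox mice, ventricular Rbfox1 was at 20.9, 27.5 and 28.3 CPM, a log2 fold change against +dox of 1.05 ± 0.19 (adjusted p = 2.38e-04). Celf1 changed by -0.38 ± 0.08 (adjusted p = 4.60e-04) in the ventricle and -0.42 ± 0.08 (adjusted p = 2.32e-04) in the atria. Celf2 changed by 0.23 ± 0.07 (adjusted p = 0.0144) and 0.43 ± 0.07 (adjusted p = 6.79e-05). Rbfox2 changed by -0.35 ± 0.07 (adjusted p = 5.13e-04) and -0.23 ± 0.07 (adjusted p = 0.0213). Without ventricular +dox replicate 2, Celf2 in the ventricle was at 0.15 and did not pass (adjusted p = 0.145), where the adjusted p over all alternatives ran from 0.0038 to 0.145. Atrial Celf2 did not pass in 1 of 15 alternatives (adjusted p = 0.05003). Atrial Rbfox2 did not pass without atrial +dox replicate 1 or +/-dox replicate 1 or 3 (adjusted p = 0.086, 0.0722 and 0.0619).

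Ptbp1, a repressor of muscle exons that is low in mature muscle, passed against +dox in the ventricle of +/-dox mice and in none of the other 9 comparisons of a cohort with +dox. Its ventricular libraries held 32.6, 33.5 and 33.9 CPM in +dox and 39.7, 41.3 and 42.4 CPM in +/-dox mice, a log2 fold change of 0.30 ± 0.08 (adjusted p = 0.00481). In -dox mice it was 0.18 ± 0.08 (adjusted p = 0.0885). On log2(TPM + 1) it did not pass in +/-dox mice (adjusted p = 0.0619), against 0.000934 to 0.0280 in the other alternatives. The comparison of the chambers gave 0.25 ± 0.11 (adjusted p = 0.314) and did not pass. In the ventricle 5 of 10 members passed for +/-dox against +dox, beside 21.8% of genes, and atrial libraries gave 3 of 10, beside 12.6%. One of these, ventricular Rbfox1, was called, beside 6.6% of all genes there and 3.99% in atrial libraries. The comparisons with -dox and +/-dox mice share the +dox libraries.

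Direct comparison of -dox with +/-dox mice passed for 0 of 10 members in both chambers by edgeR, 0 at an unadjusted p under 0.05, and 0 by DESeq2. The shares of all genes that passed were 0.0572% (ventricle) and 0.0208% (atria). The 95% interval of the log2 difference was -0.12 to 0.19 for ventricular Celf1 and -0.34 to 0.42 for ventricular Rbfox1.

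Mice given MBNL vectors stayed on dox. In their ventricles, Celf1 held 143, 147 and 152 CPM in the MBNL1 cohort, 147, 155 and 157 CPM in the MBNL2 cohort and 132, 148 and 154 CPM in the MBNL1+MBNL2 cohort. All 9 libraries were below the lowest +dox library, beside 23.2%, 27.8% and 22.5% of genes without overlap in the 3 comparisons. The log2 fold change against +dox was -0.24 ± 0.08 (adjusted p = 0.0428), -0.18 ± 0.08 (adjusted p = 0.131) and -0.27 ± 0.08 (adjusted p = 0.0244). Celf1 was the only member that passed by edgeR, in the MBNL1 and the MBNL1+MBNL2 cohorts, beside 8.95% and 8.34% of genes. By DESeq2 2 members passed in each of these cohorts. The edgeR result of Celf1 in the MBNL1 cohort did not pass after leaving out any 1 of the 6 libraries, with adjusted p between 0.0577 and 0.137. With library set as a term, Celf1 in the MBNL1+MBNL2 cohort was -0.20 and did not pass (adjusted p = 0.0557, range over all alternatives 0.0113 to 0.184). In the MBNL2 cohort 0 of 10 members passed by edgeR, 3 at an unadjusted p under 0.05, and 1 by DESeq2, beside 7.43%. No member was called in these 3 comparisons, beside 2.66%, 1.52% and 2.65%.

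Rbfox1 in the MBNL cohorts overlapped its +dox level in the ventricle. Ventricular libraries held 13.3, 14.1 and 14.7 CPM in MBNL1, 11.0, 13.3 and 13.6 CPM in MBNL2 and 10.2, 14.5 and 19.9 CPM in MBNL1+MBNL2 mice. All 9 lie below every +/-dox library, beside 19.7%, 27% and 18.1% of genes without overlap. Against +/-dox, the log2 fold changes were -0.86 ± 0.19 (adjusted p = 0.0132), -1.01 ± 0.19 (adjusted p = 0.00168) and -0.78 ± 0.19 (adjusted p = 0.0277), and all 3 were called, beside 0.868%, 1.57% and 0.53% of genes. The shares of genes that passed were 2.67%, 5.39% and 1.77%. The first and the third call were lost without single libraries. Without MBNL1 replicate 1 the adjusted p of the first was 0.0535, and without +/-dox replicate 1 or 2 it was 0.0714 or 0.0666. Without MBNL1+MBNL2 replicate 2 the third was -0.58 (adjusted p = 0.194), and it did not pass either without MBNL1+MBNL2 replicate 3 or +/-dox replicate 1 or 2.

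In the atria of the MBNL cohorts, Rbfox1 lay below the +dox cohort in its mean. Its libraries held 27.9, 29.5 and 31.9 CPM in MBNL1, 28.1, 31.1 and 31.2 CPM in MBNL2 and 25.1, 28.6 and 33.5 CPM in MBNL1+MBNL2 mice. All 9 libraries were below the lowest +dox library at 34.7 CPM, beside 17.4%, 11.4% and 17.6% of genes without overlap. The log2 fold changes against +dox were -0.28 ± 0.19 (adjusted p = 0.798), -0.27 ± 0.19 (adjusted p = 1.00) and -0.32 ± 0.19 (adjusted p = 0.623), and did not pass. Against +dox, 0 of 10 members passed in each of the 3 atrial MBNL cohorts by edgeR or DESeq2, with 1, 1 and 2 members at an unadjusted p under 0.05, beside 0.348%, 0.0104% and 0.686% of genes that passed and 0.13%, 0.0052% and 0.26% that were called.

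Atrial Celf1 and Celf2 were compared with +/-dox mice next. Celf1 was higher by 0.26 ± 0.08 (adjusted p = 0.0376) in MBNL1 and 0.37 ± 0.08 (adjusted p = 0.00136) in MBNL2 mice on the log2 scale. Celf2 was lower, with log2 fold changes of -0.30 ± 0.07 (adjusted p = 0.00829) and -0.38 ± 0.07 (adjusted p = 4.82e-04) in these cohorts and -0.28 ± 0.07 (adjusted p = 0.0132) in MBNL1+MBNL2 mice. On log2(TPM + 1) none of the 3 Celf2 results passed (adjusted p = 0.502, 0.0672 and 0.547, limma). Celf2 in the MBNL1 cohort also did not pass without its replicate 1 or +/-dox replicate 3 (adjusted p = 0.0599 and 0.0554), nor in MBNL1+MBNL2 mice without their replicate 2 or 3 or +/-dox replicate 1 or 3 (adjusted p up to 0.0741). Celf1 in the MBNL1 cohort did not pass without any of 5 of its 6 libraries, with adjusted p up to 0.178. Beside these, 4.6%, 11% and 6.86% of genes passed in the same 3 comparisons, and 1.21%, 3.24% and 1.71% were called, with no member among them. Ventricular Rbfox2 was 0.24 ± 0.07 (adjusted p = 0.0375) above +/-dox in the MBNL2 cohort. It did not pass after leaving out any 1 of the 6 libraries, with adjusted p from 0.0526 to 0.186.

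**Figure D3:**
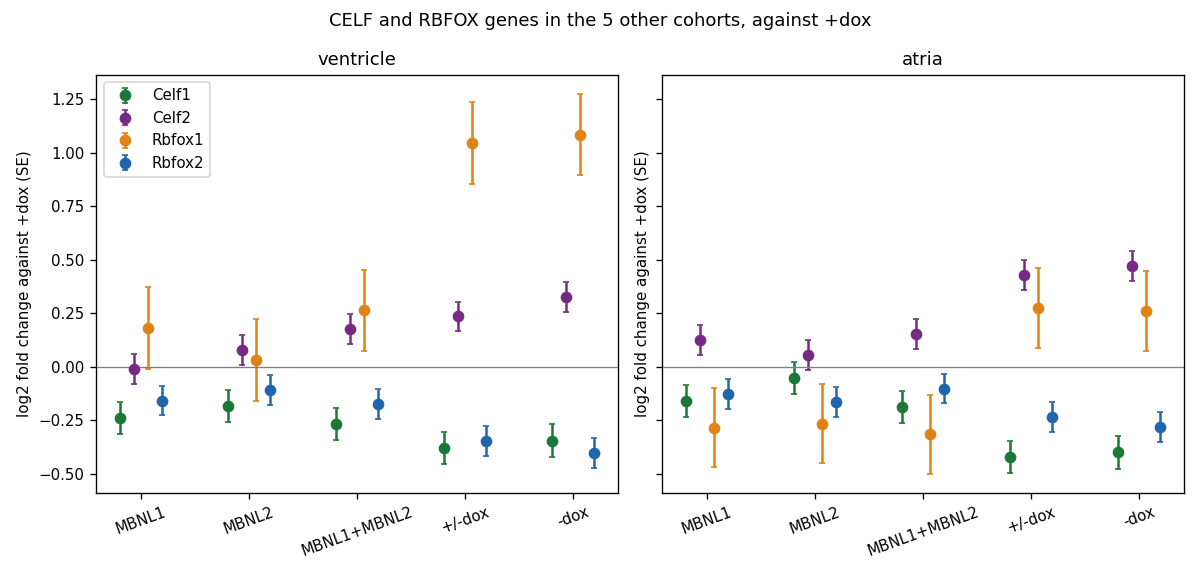
Log2 fold changes of Celf1, Celf2, Rbfox1 and Rbfox2 against +dox mice in the 5 other cohorts, with standard errors, in the ventricle (left) and the atria (right). Ventricular Rbfox1 is near 0 in the 3 MBNL cohorts (0.18, 0.03 and 0.26) and above 1 in the +/-dox and -dox cohorts.

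Counts over TPM give the transcript length that RSEM used for a gene, and this length depends on the mix of isoforms to which reads were assigned. It was set relative to the median of 10871 genes with at least 20 counts and 1 TPM in every library, a readout added after seeing the data. For Celf1 this length was longer in -dox than in +dox libraries, without overlap. It was 1.77, 1.79 and 1.80 times the median gene in ventricular +dox libraries and 1.89, 1.91 and 1.92 in -dox libraries. In the atria it was 1.78, 1.79 and 1.79 in +dox and 1.97, 1.98 and 1.98 in -dox libraries. The length was 6.88% longer in the ventricle (adjusted p = 1.96e-05, limma) and 10.6% longer in the atria (adjusted p = 2.42e-08). It was 7.49% and 8.47% longer in +/-dox mice (adjusted p = 5.35e-06 and 1.28e-06).

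All libraries of the MBNL cohorts lay between the +dox and the -dox libraries of their chamber. The nearest to +dox in the ventricle was an MBNL2 library at 1.802, beside 1.796 in the highest +dox library. Ventricular Celf1 length was 1.82, 1.86 and 1.86 in MBNL1, 1.80, 1.86 and 1.87 in MBNL2 and 1.82, 1.85 and 1.88 in MBNL1+MBNL2 mice. In atrial libraries it was 1.83, 1.84 and 1.85 in MBNL1 mice, 1.80, 1.82 and 1.83 in MBNL2 mice and 1.82, 1.83 and 1.88 in MBNL1+MBNL2 mice. The difference from +dox passed in the ventricle of the MBNL1 cohort (3.63%, adjusted p = 0.0461), but not after leaving out any 1 of 4 of its 6 libraries (adjusted p up to 0.215). Against +/-dox, atrial Celf1 length was -5.03%, -6.39% and -5.03% in the 3 MBNL cohorts (adjusted p = 0.00279, 7.13e-05 and 0.0028). Of all genes, 1.65% passed on this readout for ventricular -dox against +dox and 1.43% for atrial. For +/-dox these shares were 1.95% and 1.39%, for ventricular MBNL1 against +dox 1.05%, and for the atrial MBNL cohorts against +/-dox 0.515%, 0.984% and 0.469%. Ventricular Celf1 length was -4.01% in MBNL2 against +/-dox mice (adjusted p = 0.0234, beside 0.478% of genes), and it did not pass without MBNL2 replicate 3 or any 1 of the 3 +/-dox libraries (adjusted p up to 0.284).

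Celf1 was the only one of 9 members with enough signal that passed in any cohort comparison of this length. Rbm24, annotated with 1 protein-coding transcript, stayed between 1.11 and 1.12 over 36 libraries. GENCODE M21 lists 9 protein-coding transcripts of Celf1 from 4432 to 7851 bases. Between chambers, Qk length was -5.11% in the ventricle against the atria of -dox mice (adjusted p = 2.22e-06) and -5.15% in +dox mice (adjusted p = 3.87e-06), beside 1.19% and 1.53% of genes. TPM, which divides by this length, therefore showed a larger Celf1 difference than CPM. Ventricular Celf1 was at 40.1, 43.3 and 44.0 TPM in +dox and 29.9, 29.9 and 31.5 TPM in -dox libraries, and atrial Celf1 at 66.2, 70.9 and 72.8 TPM and 45.2, 46.2 and 48.9 TPM. On log2(TPM + 1) the fold changes were -0.47 in the ventricle and -0.57 in the atria.

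**Figure D4:**
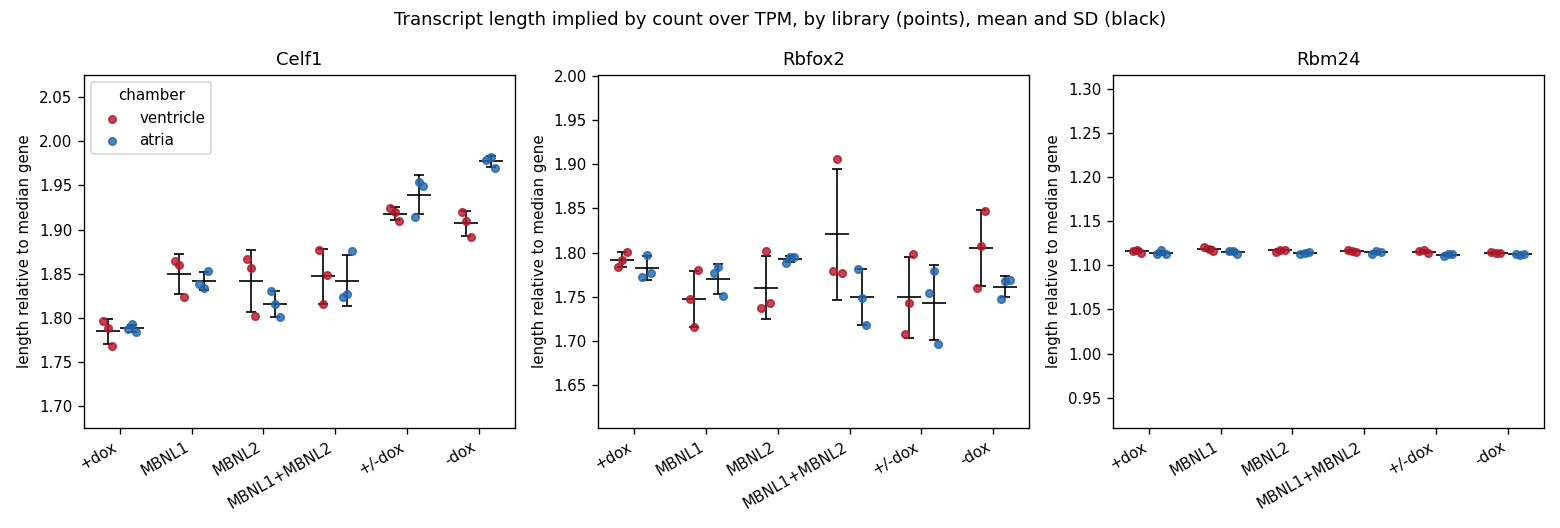
Transcript length implied by count over TPM, relative to the library's median gene, for Celf1, Rbfox2 and Rbm24 in each library (points) with mean and SD (black). The axes do not start at 0 but span equal ranges, and Celf1 sits lowest in +dox and highest in +/-dox and -dox mice, while Rbm24 is flat.

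Within each library, the ratio of 2 paralogs does not depend on the scaling between libraries. A ratio of TPM does depend on the transcript lengths that RSEM used. The ratio of Celf1 to Celf2 TPM was 2.10, 2.39 and 2.47 in ventricular +dox libraries and 1.20, 1.25 and 1.27 in -dox libraries. In the atria it was 2.41, 3.05 and 3.28 and 1.39, 1.49 and 1.50. Ventricular MBNL1 libraries (1.53, 1.61 and 2.25) overlapped the +dox range, as did atrial MBNL2 and MBNL1+MBNL2 libraries. The ventricular MBNL1 overlap rested on replicate 1 (2.25), the library with the fewest genes above 0. The other ventricular MBNL1 libraries lay below every +dox library. The ratio lay between for the atrial MBNL1 (2.11, 2.29 and 2.34) and the ventricular MBNL2 (1.57, 1.63 and 1.88) and MBNL1+MBNL2 cohorts (1.37, 1.47 and 1.77). These libraries were below every +dox library and above every -dox library of their chamber. The ratio of expected counts, which leaves length out, differed in part. On counts the ventricular MBNL2 libraries overlapped the +dox range, and the atrial MBNL1+MBNL2 libraries lay below every atrial +dox library. The ratio of Rbfox2 to Rbfox1 was 4.51, 6.78 and 9.64 in ventricular +dox and 1.77, 2.58 and 2.85 in -dox libraries, and 2.26, 2.32 and 2.40 and 1.51, 1.60 and 1.77 in the atria. Of the 6 groups of MBNL mice, 5 overlapped the +dox libraries in this ratio, with lower means in all 3 ventricular groups. The atrial MBNL1 libraries, at 2.42, 2.58 and 2.58, were above all atrial +dox libraries. On expected counts the atrial MBNL2 libraries were above them as well.

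**Figure D5:**
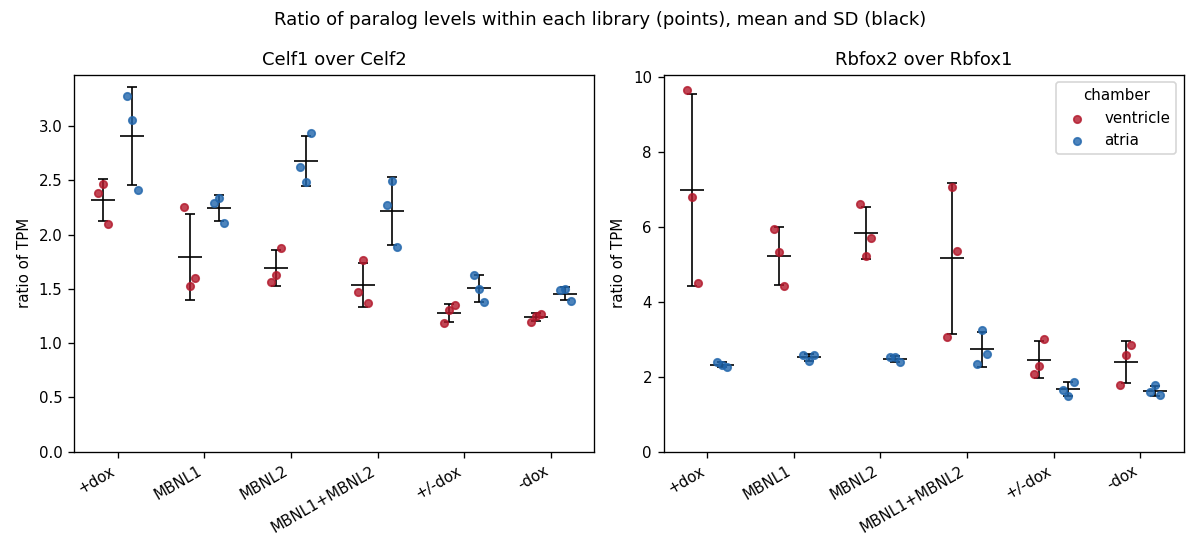
Ratio of TPM within a library for Celf1 over Celf2 (left) and Rbfox2 over Rbfox1 (right), by cohort and chamber (points), with mean and SD (black). Both ratios fall from +dox to -dox without overlap, for Celf1 over Celf2 from a ventricular mean of 2.32 to 1.24.

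The same members were compared between the chambers. In -dox mice 6 of 10 members passed between ventricle and atria, beside 42.6% of genes, and 3 were called, beside 24.9%. Rbfox1 was lower in the ventricle, with log2 differences of -0.72 ± 0.19 (adjusted p = 0.00221) in -dox and -1.55 ± 0.19 (adjusted p = 1.21e-07) in +dox mice. Qk, which acts in smooth and cardiac muscle, was higher in the ventricle by 0.59 ± 0.08 (adjusted p = 4.70e-07) and 0.59 ± 0.08 (adjusted p = 4.24e-07). Its 18 ventricular libraries ranged from 542 to 724 CPM and its 18 atrial libraries from 395 to 484 CPM, with no overlap. Ptbp1 was lower in the ventricle, at -0.32 ± 0.08 (adjusted p = 9.00e-04) and -0.38 ± 0.08 (adjusted p = 1.32e-04). Rbfox2 at -0.24 ± 0.07 (adjusted p = 0.00426) and Ptbp2 at -0.23 ± 0.09 (adjusted p = 0.0408) also passed in -dox mice, and Celf1 at -0.19 ± 0.07 (adjusted p = 0.0407) and Rbm20 at -0.28 ± 0.11 (adjusted p = 0.0421) in +dox mice. Of these, Ptbp2, Celf1 and Rbm20 failed in 9, 6 and 5 of 14 alternatives. Their adjusted p rose to 0.154 without ventricular -dox replicate 1, 0.275 without atrial +dox replicate 1 and 0.293 without ventricular +dox replicate 3. Cell markers differed between the chambers too. In -dox mice 9 of 10 cardiomyocyte markers passed as higher in the ventricle, and 6 of 7 fibroblast and 6 of 7 macrophage markers as lower. Endothelial markers went both ways, with 3 of 7 higher and 3 lower. The part of cell make-up in the chamber differences of the members was not tested.

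The chamber values of the members depend on the scale. On log2(TPM + 1), the median of all tested genes was itself 0.32 lower in the ventricle of -dox mice and 0.30 lower in +dox mice. Rbfox1 was -0.98 and -1.74 relative to that median. Qk lost its call on this scale, at 0.12 (adjusted p = 0.121) in -dox and 0.13 (adjusted p = 0.103) in +dox mice by limma, which is 0.44 and 0.43 relative to the median. Celf2, higher in the ventricle of +dox mice on counts by 0.22 ± 0.07 (adjusted p = 0.0104), was -0.38 on log2(TPM + 1), opposite in sign, and -0.08 relative to the median. On counts it did not pass without ventricular +dox replicate 1 or 3 (adjusted p = 0.0538 and 0.09). With the replicate number as a block, same-numbered libraries of the chambers are paired. In that fit Celf1 (-0.13, adjusted p = 0.0365) and Rbm20 (-0.21, adjusted p = 0.00684) also passed in -dox mice, beside 8861 of 19231 genes. Without the block, 6 of 10 members passed in +dox mice, beside 43.6%, and 2 were called, beside 25%.

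The difference of each of the 5 other cohorts from +dox mice was tested for a difference between the chambers. For -dox and +/-dox this concerns the repeat RNA together with dox. For the MBNL cohorts it concerns injection together with MBNL expression. No fit of these differences paired the chambers of an animal. By edgeR 0 of 10 members passed in each, with 1, 3, 0, 2 and 1 at an unadjusted p under 0.05 for -dox, +/-dox, MBNL1, MBNL2 and MBNL1+MBNL2, and by DESeq2 1 passed (Rbfox1, -dox) and 0 in the other 4. The background of genes that passed was 1.03%, 0.692%, 0.0312%, 0.0364% and 0.0728%, and that of genes called was 0.764% for -dox and 0.489% for +/-dox. Among set A libraries only, Rbfox1 passed for -dox (adjusted p = 0.00735) and +/-dox (adjusted p = 0.0212), and without ventricular +dox replicate 3 it passed for -dox (adjusted p = 0.0384), while over all alternatives of both comparisons these ran to 0.437.

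Rbm20, whose mutation causes dilated cardiomyopathy and alters titin splicing, held 185, 238 and 253 CPM in ventricular +dox and 231, 257 and 275 CPM in -dox libraries, and the log2 difference was 0.17 ± 0.11 (adjusted p = 0.307) with a 95% interval of -0.06 to 0.40. Rbm24, which stabilizes and splices sarcomere transcripts, differed by -0.05 ± 0.10 (adjusted p = 0.754) in the ventricle and -0.05 ± 0.10 (adjusted p = 0.78) in the atria. Qk differed by 0.03 ± 0.08 (adjusted p = 0.87) and 0.03 ± 0.08 (adjusted p = 0.855), with intervals of -0.14 to 0.19 and -0.14 to 0.20. In +/-dox mice, ventricular Rbm20 differed from +dox by 0.30 ± 0.11 (adjusted p = 0.057) and Ptbp2 by -0.23 ± 0.09 (adjusted p = 0.0651), neither of which passed. For Rbm20, Rbm24 and Qk the -dox and +dox groups overlapped in both chambers. Ptbp2, the neuronal PTB, differed by -0.11 ± 0.09 (adjusted p = 0.434) and 0.13 ± 0.09 (adjusted p = 0.376). Mbnl3, the third mouse MBNL gene, held 0.311 to 0.682 CPM in ventricular -dox libraries and 0.0630 to 0.218 CPM in atrial ones. Its ventricle-to-atria log2 difference in -dox mice was 2.17 ± 0.64 (adjusted p = 0.0058), and in +dox mice it was 1.09 ± 0.61 (adjusted p = 0.153). At these levels the fitted difference depends on a handful of reads per library.

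Among 45 other splicing regulators of muscle and heart, 40 were tested. For -dox against +dox 4 rose and 2 fell in the ventricle and 4 rose and 2 fell in the atria, with median log2 fold changes of 0.03 and 0.07, beside 0.01 and 0.03 over all tested genes. The 6 of 40 that passed in each chamber stand beside 20.9% and 15.9% of all genes. Raver2, a partner of PTB proteins, was higher in both chambers by 0.74 ± 0.18 (adjusted p = 0.00303) and 0.91 ± 0.18 (adjusted p = 4.79e-04). Its +dox libraries held 3.58, 3.68 and 3.81 CPM in the atria and its -dox libraries 6.65, 6.91 and 7.24 CPM. Nova2, a KH-domain splicing factor, was higher in the ventricle by 0.66 ± 0.14 (adjusted p = 9.95e-04), from 6.97, 7.61 and 8.77 CPM to 11.2, 12.5 and 13.3 CPM. Its atrial difference was 0.14 ± 0.15 (adjusted p = 0.57).

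Of 20 genes whose transcripts RBM20 splices, all were tested. For -dox against +dox 7 rose and 1 fell in the ventricle, and 2 rose and 2 fell in the atria. The 8 and 4 of 20 that passed stand beside 20.9% and 15.9% of all genes. The median log2 fold changes were 0.06 and 0.07. Ryr2, the calcium release channel of the sarcoplasmic reticulum, was higher by 0.96 ± 0.07 (adjusted p = 2.24e-11) in the ventricle and 0.69 ± 0.07 (adjusted p = 2.05e-08) in the atria. Its ventricular libraries went from 1059.8, 1154 and 1174 CPM to 2027, 2175 and 2401 CPM. Cacna1c, the pore of the L-type calcium channel, was higher by 0.63 ± 0.07 (adjusted p = 2.24e-07) in the ventricle, and its chamber difference passed at 0.43 ± 0.10 (adjusted p = 0.0297). Lrrfip1 fell by 0.62 ± 0.11 (adjusted p = 1.80e-04) in the ventricle.

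The genes whose CPM followed a member most closely were ranked by Pearson's r over 36 libraries of log2 CPM centred on the chamber mean, among genes with a mean of at least 1 CPM. For Celf1 they were Cse1l (0.95), Casq2 (0.93), Chchd4 (0.93), for Celf2 4930429F24Rik (0.87), Mettl4 (0.87), Uggt2 (0.87), for Rbfox1 Cyb5r2 (0.89), Rhot2 (0.88), Taz (0.88) and for Rbfox2 Strip2 (0.92), Dnajc18 (0.90), Mvd (0.89). Among the other members they were, for Rbm20 Zc3h4 (0.85), Zscan25 (0.82), Tbc1d17 (0.81), for Rbm24 Nr1d2 (0.77), Jmy (0.68), Thrap3 (0.68) and for Ptbp1 Coro1c (0.81), Spen (0.79), Notch3 (0.77). For Qk they were Ube3a (0.86), Rab18 (0.86), Cul3 (0.84) and for Mbnl3 Ptprj (0.50), Was (0.48), Kif21b (0.48). The libraries share cohorts and depth, so these values are a description. Celf1 and Rbfox2 had r of 0.77 with each other, whereas Celf1 with Celf2 and Rbfox1 with Rbfox2 had r of -0.71 and -0.77.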

How the data were processed

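RNA was measured in 36 libraries of the left ventricle and atria of CUG960 mice, 3 per chamber and cohort. Per the labels and the study's methods, stranded mRNA libraries were prepared by the authors from 250 ng of RNA, sequenced as 150-cycle pairs and processed with STAR 2.7.10b (mm10) and RSEM 1.3.1. Deposited expected counts are not normalized. Deposited TPM values account for transcript length and library total. The RSEM strand setting is not given in the sources used here. Expected counts were rounded and fitted with edgeR's quasi-likelihood test (TMM, filterByExpr, robust, 12 group means, 19231 genes). DESeq2 and limma on log2(TPM + 1) were alternatives. The fit was tested on simulated data. Positions are from GENCODE M21 on GRCm38.

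The members and lists were chosen with earlier results of these data known. Members could be named in any comparison, and of the list genes those called between -dox and +dox in either chamber. The genes most like Ptbp2 are not reported here. Same-numbered ventricular and atrial libraries deviated together in all 18 pairs (r of 0.10 to 0.59). A block of same-numbered libraries was therefore tried for ventricle against atria within -dox and within +dox mice. By the study's animal list both chambers of a cohort came from the same 3 animals, with the match of numbers to animals inferred from the data. The chamber differences of cohort effects were not fitted with this pairing. The implied transcript length, the paralog ratios, the chamber differences of the MBNL cohorts and the fits on set A were added after seeing the data. Replicates differed by more than sampling noise. The labels do not say whether replicates of a cohort shared a litter, so p-values measure the spread between these libraries.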

Additional observations from a re-analysis of the deposited data

How the results depend on the processing

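Of 42 member fold changes followed through the alternatives, 1 changed sign: Celf2 between the chambers of +dox mice was -0.38 on log2(TPM + 1). Counts below are members called. With no fold minimum, the counts in the ventricle against +dox were 4 for -dox, 5 for +/-dox, 1 for MBNL1 and 1 for MBNL1+MBNL2, and 2 for MBNL2 against +/-dox. In the atria they were 3 for -dox and 3 for +/-dox against +dox and 2 for MBNL1, 2 for MBNL2 and 1 for MBNL1+MBNL2 against +/-dox. Between chambers they were 6 in -dox and 6 in +dox mice. For ventricular MBNL1 against +/-dox the count was 0 with only the 18 libraries of the chamber, and for MBNL1+MBNL2 against +/-dox it was 0 with those 18, 0 with only the 6 libraries compared and 0 without a filter on low counts. For atrial MBNL1+MBNL2 against +/-dox it was 1 with DESeq2 and 1 with the replicate block, and for atrial MBNL2 against +/-dox 1 with set A libraries only. Between chambers it was 6 on log2(TPM + 1) in both cohorts, and in +dox mice 1 without a filter and 1 with set A only. For the chamber difference of -dox it was 1 with DESeq2 and 1 with set A only, and for that of +/-dox 1 with set A only. The cause was not tested, except that set A only and the smaller fits hold fewer libraries. Leaving out each library in turn gave 0 to 1 for ventricular MBNL1 and MBNL1+MBNL2 against +/-dox, 0 to 1 for atrial MBNL1+MBNL2 against +/-dox (without its replicate 1), 1 to 2 between chambers in +dox mice (without replicate 3 of either chamber), 0 to 1 for the chamber difference of -dox (without ventricular +dox replicate 3) and 2 to 4 for members that differ among the 6 atrial cohorts (without +/-dox replicate 1 or any -dox replicate). Same-numbered libraries within a chamber did not deviate together in every pair, so within a chamber the replicate block only shares a number, and it changed no call of a fold change that had passed. In that block atrial Rbfox1 in MBNL1+MBNL2 mice was -0.60 against +/-dox (adjusted p = 0.05). DESeq2 size factors and library set as a term left every count of called members within 1.5 times. The like genes were unstable: 17 of 20 repeats kept under 2 of the 3 genes.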
